A study of Mus musculus with 4 samples.

Results

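The long-term stem cell marker genes examined here are Procr, Fgd5, Hlf, Mecom, Prdm16, Ctnnal1, Mllt3, Pdzk1ip1, Sult1a1 and Ptpn21. They were taken as a given list of 10 names, and their probe sets were all those whose platform annotation names a single gene and names one of them. This gave 22 of the 45037 probe sets that were not controls, and 10 of the 18193 genes measured. For each gene the brightest probe set, by its mean over all arrays, stood for the gene, and the values of the others are given beside it. No probe set named a member together with another gene.

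RNA came from haematopoietic stem cells (HSCs) of mouse bone marrow, gated as Lin-Sca+Kit+CD48-CD150+ and collected without culture or treatment. All mice carried a transgene that joins N-myc to the red fluorescent protein mCherry, and cells were divided by mCherry brightness into fractions called N-myc high and N-myc low. Both fractions therefore share the fusion transgene, and no group without it was part of these arrays. Each fraction was measured in samples labelled mouse 1 and mouse 2, which made 4 arrays, 2 per group. The sources used here do not give the strain, age or sex of the mice or the promoter of the transgene. The input to amplification and biotin labelling was 5 ng of total RNA per population.

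HSCs that can rebuild blood for life are rare and mostly at rest, and they are followed by multipotent progenitors that divide more and lose this capacity. A small group of genes is active in long-term HSCs and is turned down as cells leave that state, and several of these genes have been used to build reporter mice or sorting schemes for HSCs. The list spans surface proteins (Procr, Pdzk1ip1), proteins of cell shape and signalling (Fgd5, Ptpn21, Ctnnal1), transcription factors (Hlf, Mecom, Prdm16), a chromatin reader (Mllt3) and an enzyme (Sult1a1). N-myc belongs to the MYC family of transcription factors, which bind DNA with their partner MAX at the E-box CACGTG.

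To show the regulatory sequence of these genes, their promoter windows were taken from RefSeq (build GRCm38.p6), each running from 250 bases before to 50 bases after an annotated start. All 10 genes matched, with 13 windows, since Mecom, Mllt3 and Ptpn21 have 2 starts each. A pair of windows is printed first because Mecom and Prdm16 are paralogous PR-domain zinc finger genes, and their windows share the longest run of identical bases among the 75 pairs of windows of different members. The run of 24 bases is in capitals, and starts at base 27 after the start in Mecom and at base 10 after it in Prdm16. It ends at the edge of the Mecom window, so its full length was not measured. Among all 32851 windows it was found in 2, those of Mecom and Prdm16. The next longest shared run, between Mllt3 and Prdm16, had 14 bases and was found in 34 windows.

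Mecom, upstream start, minus strand, chr3:30509710-30510009: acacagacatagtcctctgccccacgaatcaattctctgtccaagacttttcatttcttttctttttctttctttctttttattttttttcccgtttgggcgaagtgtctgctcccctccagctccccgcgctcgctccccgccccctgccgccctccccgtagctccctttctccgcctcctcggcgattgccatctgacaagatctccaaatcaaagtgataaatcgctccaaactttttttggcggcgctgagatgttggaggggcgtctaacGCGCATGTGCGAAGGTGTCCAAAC
Prdm16, minus strand, chr4:154636824-154637123: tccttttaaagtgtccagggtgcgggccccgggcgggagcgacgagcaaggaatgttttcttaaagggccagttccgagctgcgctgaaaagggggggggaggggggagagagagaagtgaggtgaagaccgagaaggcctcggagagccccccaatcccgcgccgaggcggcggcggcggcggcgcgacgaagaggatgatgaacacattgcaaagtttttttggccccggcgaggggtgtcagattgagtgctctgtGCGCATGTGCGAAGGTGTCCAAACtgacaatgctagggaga

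The windows were searched on both strands for the E-box CACGTG. They were also searched for TTACGTAA, a motif of the PAR bZIP family to which Hlf belongs. The other motifs were AGATAA for GATA factors, TGTGGT for RUNX factors and CCGGAAG for ETS factors. The E-box was found in 1 of 13 member windows, that of Pdzk1ip1, and in 7.15% of all windows. TGTGGT was found in 1 member window, at a start of Ptpn21, against 16.8% of all windows. The PAR bZIP, GATA and ETS motifs were in 0 of the 13 windows, against 0.119%, 11.2% and 8.86% of all windows. These are matches of letters in a short window, and they say nothing on binding. The Pdzk1ip1 window is printed because it holds the only E-box, in capitals, 192 bases before the start.

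Pdzk1ip1, plus strand, chr4:115088458-115088757: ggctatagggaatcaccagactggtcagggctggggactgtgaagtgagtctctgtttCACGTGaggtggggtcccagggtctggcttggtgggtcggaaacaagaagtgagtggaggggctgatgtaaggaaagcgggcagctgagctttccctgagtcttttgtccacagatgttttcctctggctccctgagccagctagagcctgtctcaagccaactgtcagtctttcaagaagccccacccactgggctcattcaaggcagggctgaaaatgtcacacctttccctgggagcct

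Before the members, the arrays were checked against their labels. For Mycn the log2 intensity was 10.5 (mouse 1) and 10.4 (mouse 2) on the N-myc high arrays against 9.44 and 9.65 on the N-myc low arrays, and its other probe sets differed by 0.11 and 1.06, the latter from mouse 2 alone. Of the sort genes, Kit was at 10.2 and 10.3 against 10.2 and 10.5, and Slamf1, which encodes CD150, at 8.73 and 8.63 against 8.99 and 8.01, and both overlapped between groups. A dimmer set of Kit was at 8.64 and 8.75 against 8.99 and 9.06, lower in N-myc high without overlap. Of the dimmer sets of Slamf1, one was higher without overlap, at 8.24 and 7.74 against 7.72 and 7.08, and the other overlapped, at 7.70 and 7.68 against 7.87 and 7.18. Cd48, which the gate selects against, was at 7.42 and 7.11 in N-myc high and at 9.89 and 9.07 in N-myc low. Ly6a, the Sca-1 gene, was not among the genes measured by a probe set of a single name. Xist was at 11.4 and 11.1 on the arrays of mouse 1 and at 3.84 and 3.70 on those of mouse 2, while the Y-linked Eif2s3y was between 8.43 and 9.67 on all 4, so what the mouse 1 sample holds is not settled and each member is also given within each mouse. The bioB and bioC hybridisation controls were at 10.8 on both N-myc high arrays, at 11.0 on N-myc low mouse 1 and at 11.7 on N-myc low mouse 2.

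Of the 10 marker genes, 9 had both N-myc high arrays above both N-myc low arrays, namely every member except Ctnnal1, against 15.6% of all genes. The same 9 had a positive difference, which follows from that order, as had 45.3% of all genes. None had both below, against 20.8% of all genes. Since the list was chosen with earlier results of these data known, the shares of all genes are a setting and not an independent test. The median difference of the 10 was 0.73 on the log2 scale, or 1.65-fold, against -0.03 over all genes. Within the mice that median came to 0.62 and 0.80. Fgd5, Procr and Mecom differed most, by 2.99-fold, 2.28-fold and 2.07-fold. In 6 genes (Procr, Fgd5, Hlf, Prdm16, Mllt3 and Sult1a1) the gap between the groups was wider than the widest gap between replicates of a group, against 4.53% of all genes. In whole populations such as these, fewer cells of a type and less RNA per cell cannot be told apart.

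**Figure D1:**
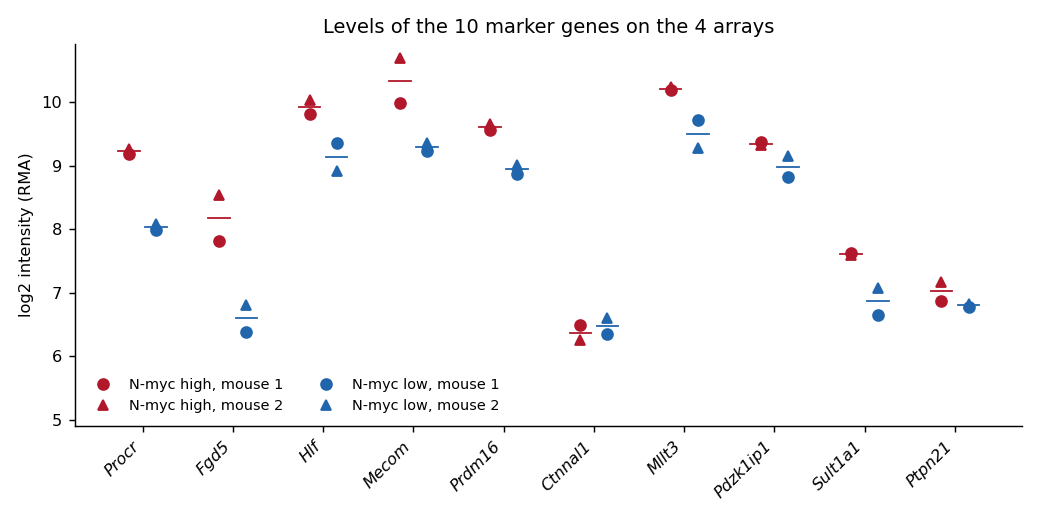
Log2 intensity (y axis) of the 10 marker genes (x axis) on the 4 arrays, with N-myc high in red, N-myc low in blue, mouse 1 as circles, mouse 2 as triangles and the group mean as a line. In 9 genes both red points lie above both blue points, and in Ctnnal1 they interleave.

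No member passed the test across all genes. With limma, 0 of the 18193 genes had an adjusted p under 0.05 (0%), and the members' adjusted p ran from 0.744 to 0.948. Without adjustment, 7 members were higher at p under 0.05 (3.53% of all genes) and 0 lower (2.78%), and 1148 genes had such a p in either direction. That count of 7 was 3 when the hybridisation controls entered as covariate, while the count over all genes rose from 1148 to 1340. It was also lower with each array left out, where a group holds a lone array and no count is given. With 2 against 2 arrays, an exact two-sided permutation test of a single gene cannot go below p = 0.333.

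Procr encodes the endothelial protein C receptor, also called EPCR or CD201, a surface protein by which HSCs are sorted. It was at 9.18 and 9.27 in N-myc high and at 7.99 and 8.08 in N-myc low, the first value of each pair being mouse 1. The replicates lay within 0.092 of each other and the groups were 1.10 apart, so the groups were well clear of each other. Its difference was 1.19 (95% interval 0.72 to 1.66, SE 0.177, limma adjusted p = 0.744), and each mouse gave 1.19. A single probe set (1420664_s_at) measures Procr, and the suffix marks a set that can also match transcripts of other genes. The brightest sets of Ctnnal1 (1420930_s_at), Mllt3 (1453622_s_at) and Pdzk1ip1 (1455477_s_at) carry the same suffix, and the other sets of these genes do not.

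Pdzk1ip1 encodes MAP17, a small membrane protein that binds PDZ domains. It was at 9.37 and 9.33 in N-myc high and at 8.82 and 9.16 in N-myc low, so the groups were 0.18 apart, less than the 0.33 between the N-myc low arrays. The difference of 0.36 (95% interval -0.18 to 0.91, limma adjusted p = 0.809) was 0.55 in mouse 1 and 0.18 in mouse 2. Its other probe set (1417689_a_at), only 0.13 dimmer on average, was at 9.41 and 9.49 against 8.54 and 8.73, a difference of 0.81. Which of these nearly equal sets stands for the gene thus moved the value by more than 1.5 times, as did leaving out N-myc low mouse 1 (0.20) and the covariate (0.65).

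Fgd5 encodes an exchange factor that activates the small GTPase Cdc42, and it has served as a reporter gene for HSCs. It was at 7.81 and 8.54 in N-myc high and at 6.39 and 6.81 in N-myc low. Both N-myc high arrays stood at least 1.00 above the N-myc low arrays, with 0.73 between the N-myc high replicates. The difference of 1.58 (95% interval 0.70 to 2.46, SE 0.330, limma adjusted p = 0.762) was the largest of the 10, with 1.43 in mouse 1 and 1.73 in mouse 2. Fgd5 rests on 1 probe set (1460578_at).

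Ptpn21 encodes a protein tyrosine phosphatase with a FERM domain, the part that ties such proteins to the membrane skeleton. Its brightest probe set was at 6.87 and 7.18 in N-myc high and at 6.77 and 6.83 in N-myc low. The groups did not overlap, but only 0.043 lay between them, against 0.31 between the N-myc high replicates. The difference was 0.22 (95% interval -0.31 to 0.76, limma adjusted p = 0.860). Its next probe set, 0.096 dimmer, was at 7.27 and 6.36 against 6.35 and 7.28, which is a difference of 0.0032 from opposite signs in the mice. The dimmest was at 2.83 and 2.92 against 2.66 and 3.82, a difference of -0.36. Averaged over all 3 sets the sign turned, with a difference of -0.045, so the direction of Ptpn21 depended on the probe set. The turn rests on the dimmest set, whose mean level of 3.06 was below the median of 5.29 over all probe sets. With the N-myc high array of mouse 1 left out the brightest set gave 0.38, and with that of mouse 2 left out it gave 0.071. With each array centred on its median its groups overlapped, and the count of 9 genes became 8.

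Ctnnal1 encodes alpha-catulin, a relative of alpha-catenin that has also been used as an HSC reporter. Its brightest probe set was at 6.495 and 6.25 in N-myc high and at 6.34 and 6.60 in N-myc low, and the groups overlapped. The difference of -0.10 (95% interval -0.66 to 0.45, limma adjusted p = 0.948) was 0.15 in mouse 1 and -0.35 in mouse 2. Its other probe set (1420929_at), 0.093 dimmer on average, was at 6.48 and 6.70 against 6.06 and 6.08. There the groups were 0.40 apart and the difference was 0.52 (95% interval 0.01 to 1.03 in the fit over probe sets). Ctnnal1 is thus a member for which the choice of the brightest set decided the sign, and over the mean of both sets the difference was 0.21. The sign also turned when an array of mouse 2 was left out, to 0.020 (N-myc high) and 0.028 (N-myc low).

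**Figure D2:**
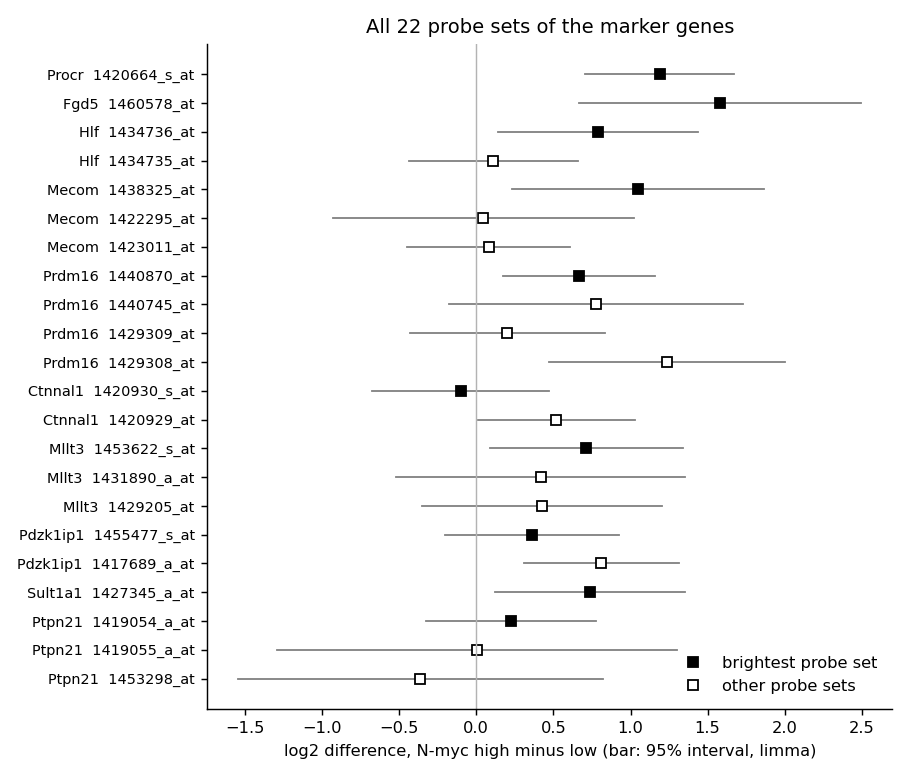
Log2 difference between N-myc high and N-myc low (x axis) for the 22 probe sets of the marker genes (y axis), with the 95% interval of the limma fit over all probe sets as a bar. Filled squares are the brightest set of each gene and open squares the others, and 20 of the 22 lie above 0.

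Hlf encodes a transcription factor of the PAR bZIP family that keeps HSCs at rest. It was at 9.82 and 10.03 in N-myc high and at 9.35 and 8.92 in N-myc low, and the groups were 0.46 apart against 0.43 between the N-myc low replicates. The difference of 0.79 (95% interval 0.16 to 1.41, SE 0.235, limma adjusted p = 0.769) came to 0.46 in mouse 1 and to 1.11 in mouse 2. A dimmer set of Hlf, at 9.20 and 9.26 against 9.27 and 8.97, overlapped and differed by 0.11. The mean of both sets gave 0.45, and the covariate 0.41.

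Mecom encodes the zinc finger factors known as EVI1 and MDS1-EVI1, which HSCs need for self-renewal. Its brightest probe set (1438325_at) was at 9.99 and 10.7 in N-myc high and at 9.23 and 9.37 in N-myc low, with the groups 0.63 apart and 0.71 between the N-myc high replicates. The difference was 1.05 (95% interval 0.27 to 1.83, SE 0.295, limma adjusted p = 0.769), with 0.77 in mouse 1 and 1.33 in mouse 2, and it was 0.70 without N-myc high mouse 2. The other sets of Mecom did not show it. They were at 5.68 and 5.81 against 5.25 and 6.16, and at 3.50 and 3.54 against 3.58 and 3.31, with differences of 0.04 and 0.08. Both overlapped between groups, and the mean of the 3 sets gave 0.39. The dimmest set had a mean level of 3.48, below the median of 5.29 over all probe sets. Which Mecom transcripts each set reads was not determined here.

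Prdm16 encodes a PR-domain factor of the same family that is also needed for HSC maintenance. It was at 9.56 and 9.66 in N-myc high and at 8.87 and 9.01 in N-myc low, with 0.55 between the groups and at most 0.14 between replicates. The difference was 0.67 (95% interval 0.19 to 1.15, SE 0.181, limma adjusted p = 0.767), and the mice were close, with 0.69 and 0.64. Its 4 probe sets all had a positive difference. Set 1429308_at was at 6.68 and 7.31 against 5.83 and 5.70, set 1440745_at at 7.50 and 7.98 against 7.34 and 6.59, and set 1429309_at at 7.45 and 6.995 against 7.01 and 7.03. The first of these gave 1.23 and the next 0.78, both without overlap, and the last gave 0.20 with overlap.

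Mllt3 encodes AF9, a YEATS-domain protein that reads acylated histones and supports transcript elongation. It was at 10.20 and 10.24 in N-myc high and at 9.73 and 9.28 in N-myc low, with the groups 0.47 apart and 0.45 between the N-myc low replicates. The difference of 0.71 (95% interval 0.11 to 1.32, SE 0.227, limma adjusted p = 0.779) was 0.47 in mouse 1 and 0.96 in mouse 2, and 0.34 with the covariate. Its other sets were at 8.67 and 9.54 against 8.67 and 8.71, and at 9.04 and 8.66 against 8.70 and 8.15. These differed by 0.42 and 0.43 with the same sign in both mice, and overlapped between groups by 0.04 each.

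Sult1a1 encodes a sulfotransferase that acts on phenols. It was at 7.62 and 7.59 in N-myc high and at 6.65 and 7.08 in N-myc low, with the groups 0.51 apart against 0.43 between the N-myc low replicates. The difference was 0.74 (95% interval 0.14 to 1.33, SE 0.223, limma adjusted p = 0.769), and here mouse 1 gave the larger value, 0.97 against 0.51. A single probe set measures it.

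Over the 22 probe sets, 13 had both N-myc high arrays above both N-myc low arrays, against 14.4% of all probe sets, and 0 had both below, against 22.1%. At an unadjusted p under 0.05 in limma, 10 of the 22 were on the higher side (3.06% of all probe sets) and 0 on the lower (3.32%). In 9 of the 22, with N-myc high above, the groups lay further apart than replicates did (4.12% of all probe sets). Sets of 1 gene were read on the same arrays, so they do not add replicates. Of the 12 sets that did not stand for a gene, 11 had a positive difference, against 43.2% of all probe sets. In 4 of them the groups did not overlap, namely 2 sets of Prdm16 and those of Ctnnal1 and Pdzk1ip1. Taking the mean of a gene's sets in place of the brightest lowered the median difference of the 10 genes from 0.73 to 0.55. None of the 22 passed an adjusted p under 0.05 in limma, as none of the 45037 did (0%).

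**Figure D3:**
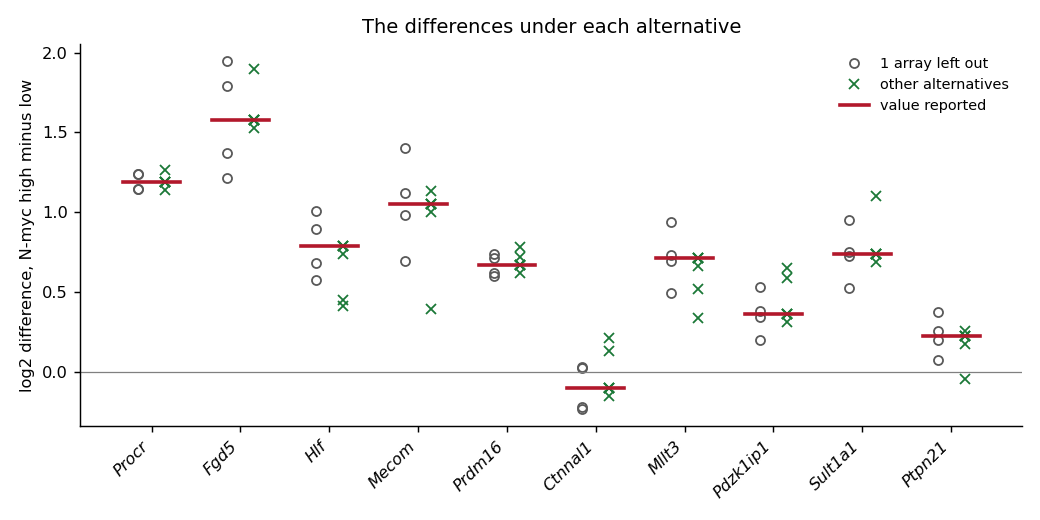
Log2 difference between N-myc high and N-myc low (y axis) of the 10 marker genes (x axis) as reported (red line), with each array left out in turn (circles) and under the other alternatives (crosses). The sign turned for Ctnnal1 and Ptpn21, and the other 8 genes stayed above 0. Except for Ctnnal1, leaving out an array could not turn the sign, since the groups did not overlap.

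Within the mice, 9 of the 10 genes were higher in N-myc high in both, against 23.2% of all genes. They are the 9 whose groups did not overlap, which already fixes the sign within each mouse, so this count adds nothing to the earlier one. Mouse 1 gave the larger difference for 5 members and mouse 2 for the other 5. Procr and Prdm16 had nearly the same difference in both mice. Hlf, Mllt3 and Mecom had more in mouse 2, while Sult1a1 and Pdzk1ip1 had more in mouse 1.

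**Figure D4:**
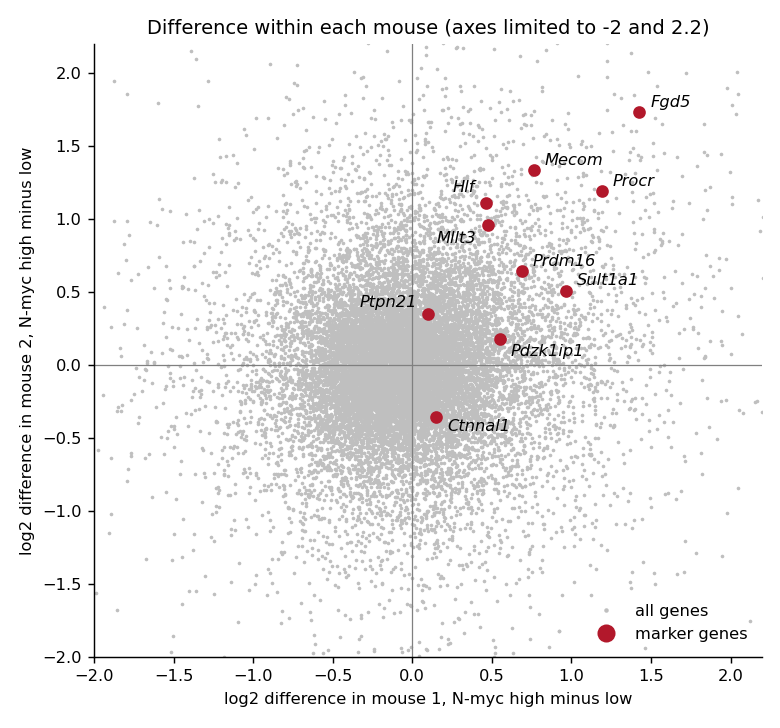
Log2 difference between N-myc high and N-myc low in mouse 1 (x axis) and mouse 2 (y axis) for all genes (grey) and the 10 marker genes (red). Each point is a single array minus another, genes beyond the axes are not drawn, and 9 marker genes lie above 0 on both axes.

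Other genes known from long-term HSCs gave the setting for the members. Of 47 such genes on a list without the members, 44 were measured. This list and that of multipotent progenitor genes were also chosen with earlier results of these data known. In 18 of them both N-myc high arrays were above both N-myc low arrays (background 15.6%) and in 5 below (background 20.8%), with a median difference of 0.25. The 6 with the smallest p were Tgm2, a transglutaminase (0.99), Cdkn1c, the cyclin-dependent kinase inhibitor p57 (1.69), Vwf, von Willebrand factor (1.88), Clec1a, a C-type lectin receptor (1.95), Ifitm1, an interferon-induced membrane protein (0.81), and Smtnl1 (1.01). Of these 6, Clec1a and Smtnl1 had mean levels of 5.24 and 4.80, below the median of 6.22 over all genes. Tgm2 gave 0.63 over the mean of its 6 probe sets. Without adjustment, 10 of the 44 had p under 0.05 on the higher side (background 3.53%) and 2 on the lower (background 2.78%), and 0 passed the adjusted threshold in limma. The 5 on the other side, named after their values were seen, were the lipoprotein receptor gene Vldlr (-1.24), the integrin gene Itga2b (-0.55), Cyyr1 (-0.56) and the transcription factor genes Gfi1b (-0.32) and Gata2 (-0.29).

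Genes of multipotent progenitors had a median difference of -0.28 over the 21 measured of 22. Both N-myc high arrays lay below both N-myc low arrays for 11 of them (background 20.8%) and above for 3 (background 15.6%). The 3 with the smallest p were Cd48 (-2.21), Cdk6, a kinase of G1 progression (-0.97), and Plac8 (-0.85), and 0 passed the adjusted threshold. That median was -0.42 without N-myc low mouse 1, -0.10 over the means of probe sets and -0.53 without dim genes. The 3 on the other side, named after their values were seen, were the receptor genes Flt3 (1.20), Csf3r (0.30) and Csf1r (0.27).

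**Figure D5:**
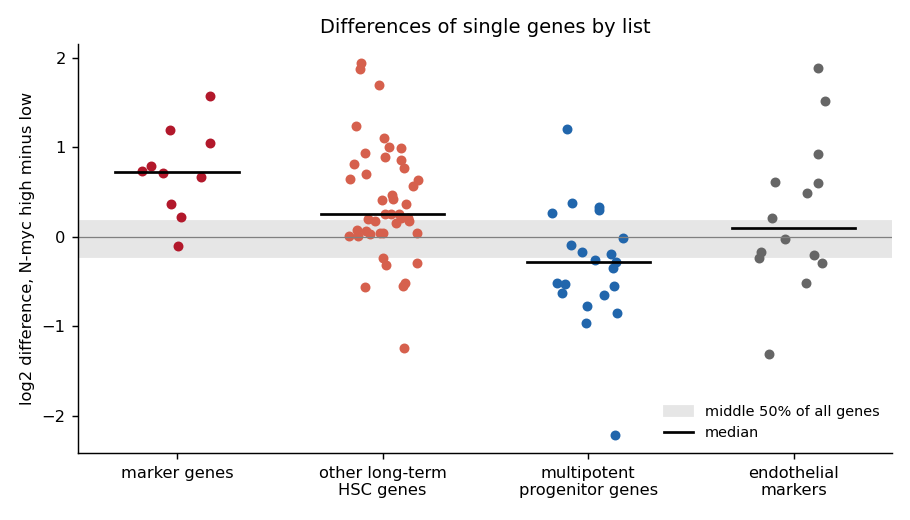
Log2 difference between N-myc high and N-myc low (y axis) for single genes of 4 lists (x axis), with the list's median as a black line and the middle 50% of all genes, from -0.22 to 0.18, as a grey band. The marker genes have a median of 0.73, the other long-term HSC genes 0.25, the multipotent progenitor genes -0.28 and the endothelial markers 0.10.

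Several lists of markers of other cells differed between the groups in their summed level, and their part in the result was not tested. Procr and Fgd5 are also endothelial genes. Of the 14 endothelial markers, all measured, 12 were below the median level of all genes, and the log2 of the summed intensity was 9.86 and 10.002 on the N-myc high arrays against 9.29 and 9.25 on the N-myc low arrays. Singly, 7 of the 14 had a positive and 7 a negative difference, with a median of 0.10. The brightest were Emcn, at 8.25 and 8.32 against 7.95 and 7.42, and Ecscr, at 8.20 and 8.15 against 6.69 and 6.63. Ecscr, Sox18, Emcn, Kdr and Cldn5 were above in both N-myc high arrays (15.6% of all genes) and Cdh5 and Stab1 below (20.8% of all genes). Cdh5, the endothelial cadherin, was between 3.34 and 3.65 on all arrays. Among granulocyte and monocyte markers, 10 of 16 were below in both N-myc high arrays (20.8% of all genes) and 2 above (15.6% of all genes), with a summed level of 15.12 and 14.97 against 15.26 and 15.26. Dendritic cell markers had 6 of 12 above and 1, Ccr9, below, beside the same shares of all genes. The 6 were Cd74, H2-Aa, H2-Ab1, H2-Eb1, Flt3 and Zbtb46. Their list summed to 11.6 and 11.5 against 10.5 and 10.5. Singly, 7 were higher and 5 lower, and 6 of the 12 were below the median level of all genes. The lists share genes. Mpo, Ctsg, Csf1r and Csf3r of the granulocyte and monocyte markers, and Flt3 and Ccr9 of the dendritic cell markers, are also among the multipotent progenitor genes. Macrophage markers summed to 9.96 and 9.90 against 9.44 and 9.10, B cell markers to 9.21 and 8.98 against 8.51 and 8.76, and T and NK cell markers to 8.88 and 8.84 against 9.24 and 9.41. Such sums weigh the brightest genes most. Singly, 7 macrophage markers were higher and 5 lower (median difference 0.20). B cell markers had 5 higher and 6 lower (median -0.15), and T and NK cell markers 6 and 6 (median -0.00041). Below the median level of all genes were 9 of 12 macrophage, 10 of 11 B cell and 11 of 12 T and NK cell markers. Mast cell and basophil markers summed to 7.49 and 7.49 against 8.05 and 8.06. Singly, 3 of these 8 were higher and 5 lower, and 7 were below the median level of all genes. Erythroid (12.94 to 12.99 against 12.86 to 13.14), megakaryocyte (11.65 to 11.98 against 11.56 to 11.67) and stromal markers (8.59 to 9.96 against 8.94 to 9.03) overlapped between groups. RMA values have no zero, so no marker can be called absent.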

How the data were processed

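Each deposited value is the log2 intensity of a probe set. The submitters' processing notes name RMA, affy and limma, with no versions, so the authors' values are taken as RMA output. RMA removes shifts shared by all genes of an array. For the genome build and the chip definition, the sources used here give nothing. Median log2 intensities of the arrays were 5.26 to 5.32, and precision is limited by the number of arrays.

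Of 45101 probe sets, 64 controls were left out. Platform annotation gave 1 gene name to 34945 probe sets, several to 932, and 9160 were unnamed here. Entrez numbers of 34741 were found in the RefSeq table (GRCm38.p6), which changed 0 symbols. The brightest of a gene's sets stood for it. The fit used limma 3.58.1 (lmFit, eBayes) under R 4.3.3, over all genes and over all probe sets, with Benjamini-Hochberg adjustment, and the script was tested on simulated data. SE and intervals are limma's. Summed marker levels are log2 of summed linear values. P-values measure the spread between these samples, with the variance of each gene drawn toward that of all genes. The main fit treats all arrays as independent, including those with the same mouse number.

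The labels give the same mouse numbers to both groups, and the deviations of same-numbered arrays correlated at r = 0.049 across genes. The mouse as a block was an alternative, as were probe set means, a filter on dim genes, array centring, an intensity trend, the hybridisation controls as a covariate and leaving out each array. The members and lists were chosen with earlier results of these data known. Named genes were the members, Mycn, the sort genes, the 6 and 3 genes of smallest p from the long-term HSC and multipotent progenitor lists, and the 3 genes nearest in profile. Xist, Eif2s3y, the endothelial genes, the dendritic cell genes and genes marked in the text were chosen after their values were seen.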

Additional observations from a re-analysis of the deposited data

How the results depend on the processing

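Over 10 alternatives for each of the 10 marker genes, 95 of 100 differences kept their sign, and 5 turned sign. The mouse block, the intensity trend and the filter on dim genes leave a difference unchanged by design. So does the mean of probe sets for the 3 members with 1 set. Leaving out an array also cannot turn the sign of the 9 members whose groups did not overlap. None of these values could turn sign, so the 95 overstate how far the signs were put to the test. Ctnnal1 (-0.10) became 0.21 with the mean of probe sets and 0.13 with the covariate, and ran from -0.23 to 0.028 with an array left out, while Ptpn21 (0.22) became -0.045 with the mean of probe sets. Among sort genes, Kit became 0.16 and Slamf1 -0.65 with the covariate, and with an array left out they ran from -0.31 to 0.048 and from -0.32 to 0.66. The members at an unadjusted p under 0.05 were 7, but 3 with the covariate and 2 to 4 with an array left out, where the lone array is assumed to vary like the others. The members' median was 0.55 with the mean of probe sets. The median of the multipotent progenitor genes was -0.10 with that mean, -0.53 without dim genes and -0.42 to -0.24 with an array left out. With the mouse as a replicate block, 7 members again had an unadjusted p under 0.05, the median stayed at 0.73 and 1098 genes had such a p, and it changed no call. Without dim genes 606 genes of the 9096 left had such a p, fewer having been tested. The cause of the other shifts was not tested.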

Other observations

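The mean profile of the 10 marker genes, each centred on its own mean, stood at 0.27 and 0.45 on the N-myc high arrays against -0.41 and -0.31 on the N-myc low arrays (mouse 1 first). The genes outside the list with the closest profile, by Euclidean distance over the 4 arrays, were Wdr81 (0.058), Fstl1 (0.061) and the noncoding Gm11696 (0.062). Among all 18193 genes, Prdm16 ranked at 8 by this distance, while Fgd5, with its larger difference, ranked at 11442 and Ctnnal1 at 9339. Each member is part of the mean profile it was ranked against, so its closeness is partly built in. The measure rests on 4 points a gene, so many genes lie close by.

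The promoter windows of the members differed widely in CG dinucleotides. The 13 windows held from 0 (Sult1a1) to 47 (Ptpn21), with a median of 19, against a median of 7 and quartiles of 3 and 20 over all windows. Procr had 13, Fgd5 37 and the windows of Mecom 19 and 9.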
